A study of Homo sapiens with 4 samples.

Results

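The genes described here are 9 genes of interferon signalling: the receptor chain IFNAR1, the kinases JAK1 and TYK2, the transducer STAT2, and the interferon regulatory factors IRF9, IRF1, IRF2, IRF3 and IRF7. They were taken as a named list, 9 of 20037 protein-coding genes in RefSeq GRCh38, and every peak from 5 kb before to 5 kb past each gene was counted. These windows held 25 of 76313 peaks of the control list and 35 of 97653 peaks of the list made after CHAF1A knockdown.

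Type I interferons bind a receptor made of IFNAR1 and IFNAR2, which activates the kinases TYK2 and JAK1. The kinases phosphorylate STAT2, which joins IRF9 in a complex called ISGF3 and switches on genes through a DNA element called ISRE. IRF3 and IRF7 act earlier, downstream of nucleic acid sensors, and switch on the interferon genes themselves. IRF1 activates and IRF2 restrains many of the same targets. Transcripts of transposable elements can trigger this pathway, and the title of the series concerns the silencing of such elements.

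The cells were RBE, an established line of human intrahepatic cholangiocarcinoma. They received a control siRNA (2 samples) or siRNA against CHAF1A (2 samples) and were harvested at 48 hours. The knockdown samples are numbered 1 and 2 without saying whether the numbers mark repeats or different siRNAs. The protein mapped was CHAF1A, part of CAF-1, a complex that loads histones onto newly copied DNA. The method was CUT&Tag, in which an antibody directs a transposase to cut and tag the DNA around its target. There is 1 peak list per group, here called the control list and the siRNA list. Replicate error could not be measured, so every difference between the lists is a description of those lists. An siRNA acts on RNA, so peaks at the CHAF1A gene do not check the knockdown, and signal at open chromatin was not separated from CHAF1A itself.

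The 250 bases before 5 annotated starts show what lies under or beside the peaks (RefSeq, GRCh38.p14, written 5′ to 3′ on the gene's strand). The STAT2 stretch (chr12:56360108-56360357, minus strand) is shown because it held the strongest peak of the set. Its capitals mark 11 bases around the summit of the control list, the first block, and around that of the siRNA list, the second block. The IRF1 stretch (chr5:132490774-132491023, minus strand) and the IRF9 stretch (chr14:24161015-24161264, plus strand) have capitals where the letters match a gamma-activated site, described further on.
STAT2: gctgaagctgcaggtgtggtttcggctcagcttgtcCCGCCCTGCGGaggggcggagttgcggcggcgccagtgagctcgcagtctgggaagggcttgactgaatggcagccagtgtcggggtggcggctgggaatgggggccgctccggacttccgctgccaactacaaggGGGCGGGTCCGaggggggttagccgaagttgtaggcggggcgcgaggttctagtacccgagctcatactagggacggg
IRF1: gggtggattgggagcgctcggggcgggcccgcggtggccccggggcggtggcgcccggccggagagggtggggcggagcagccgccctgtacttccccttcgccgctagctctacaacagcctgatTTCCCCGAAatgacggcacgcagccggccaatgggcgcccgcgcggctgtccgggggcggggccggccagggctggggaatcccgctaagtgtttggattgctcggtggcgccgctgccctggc
IRF9: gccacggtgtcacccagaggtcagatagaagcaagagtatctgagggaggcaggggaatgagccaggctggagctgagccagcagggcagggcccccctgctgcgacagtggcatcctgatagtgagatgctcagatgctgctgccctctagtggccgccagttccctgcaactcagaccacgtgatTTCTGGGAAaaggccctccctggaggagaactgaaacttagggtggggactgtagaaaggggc

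The 2 stretches of JAK1 set a start that had a peak beside one that had none. Capitals mark each CpG, the dinucleotide that is dense at many promoters. The inner start, at 64966549, follows the first stretch (chr1:64966550-64966799), and the outer start, at 65067746, follows the second (chr1:65067747-65067996). Both are on the minus strand.
JAK1 inner: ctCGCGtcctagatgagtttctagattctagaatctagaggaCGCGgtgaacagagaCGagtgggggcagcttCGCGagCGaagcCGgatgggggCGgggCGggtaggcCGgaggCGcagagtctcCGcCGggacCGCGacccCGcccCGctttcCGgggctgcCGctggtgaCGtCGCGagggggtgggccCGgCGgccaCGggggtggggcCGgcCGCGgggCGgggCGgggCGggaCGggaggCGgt
JAK1 outer: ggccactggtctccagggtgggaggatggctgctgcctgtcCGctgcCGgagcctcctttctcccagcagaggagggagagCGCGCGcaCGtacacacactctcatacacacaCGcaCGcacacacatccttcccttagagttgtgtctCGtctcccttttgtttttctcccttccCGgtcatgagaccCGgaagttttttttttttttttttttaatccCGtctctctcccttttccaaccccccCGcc

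All 9 genes had a peak in both lists. Over all protein-coding genes, 82.3% had a control peak and 85.0% a siRNA peak in the same window, so having a peak does not set these genes apart. No member was without a control peak while having a siRNA peak, which held for 5.50% of protein-coding genes. The number of peaks was higher in the siRNA list for 6 genes, lower for JAK1 and IRF2, and equal for IFNAR1. The siRNA list held 1.40 times as many peaks as the control list in these windows and 1.27 times as many in the windows of all protein-coding genes. Per 10 kb of window, the 9 genes together held 0.481 control and 0.674 siRNA peaks, against 0.380 and 0.479 over all protein-coding genes.

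**Figure D1:**
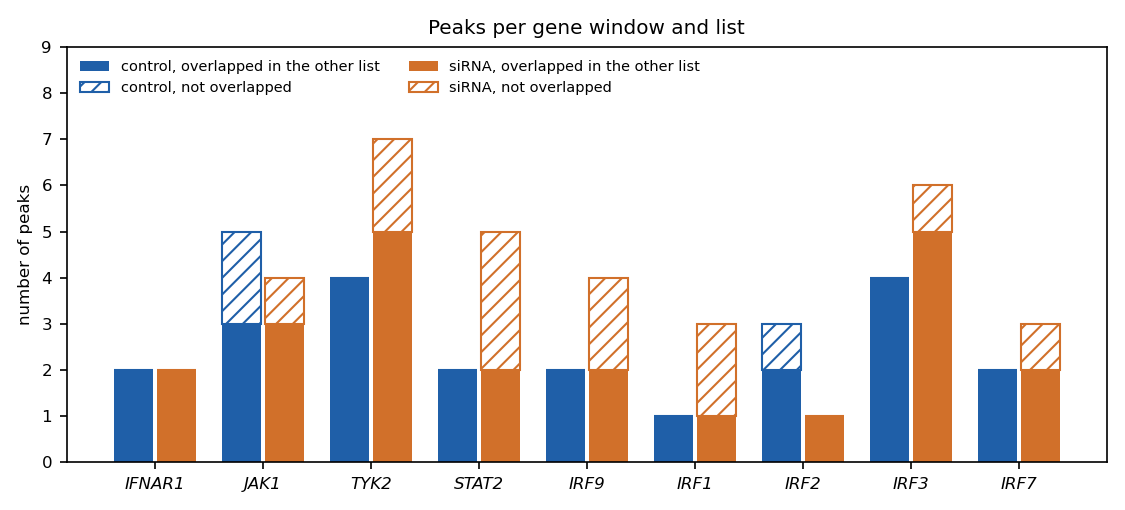
Number of peaks (vertical axis) in the window of each gene (horizontal axis), in the control list (blue) and the siRNA list (orange); solid parts are peaks overlapped by a peak of the other list and hatched parts are not. Hatched siRNA peaks occur in 7 genes and hatched control peaks in JAK1 and IRF2.

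Fold enrichment at these genes was near that of other genes in the control list and lower in the siRNA list, while −log10 q was higher in both. Fold enrichment, the authors' ratio of reads at the summit to the local background, ran from 2.37 to 8.82 in the control list, with a median of 3.77 against 3.68 in all gene windows. In the siRNA list it ran from 1.75 to 6.45, with a median of 2.82 against 3.14. The median −log10 q, the authors' measure of confidence in a peak, was 14.6 in the control list and 12.3 in the siRNA list, against 9.93 and 8.68 in all gene windows. Both values depend on the depth of each list.

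**Figure D2:**
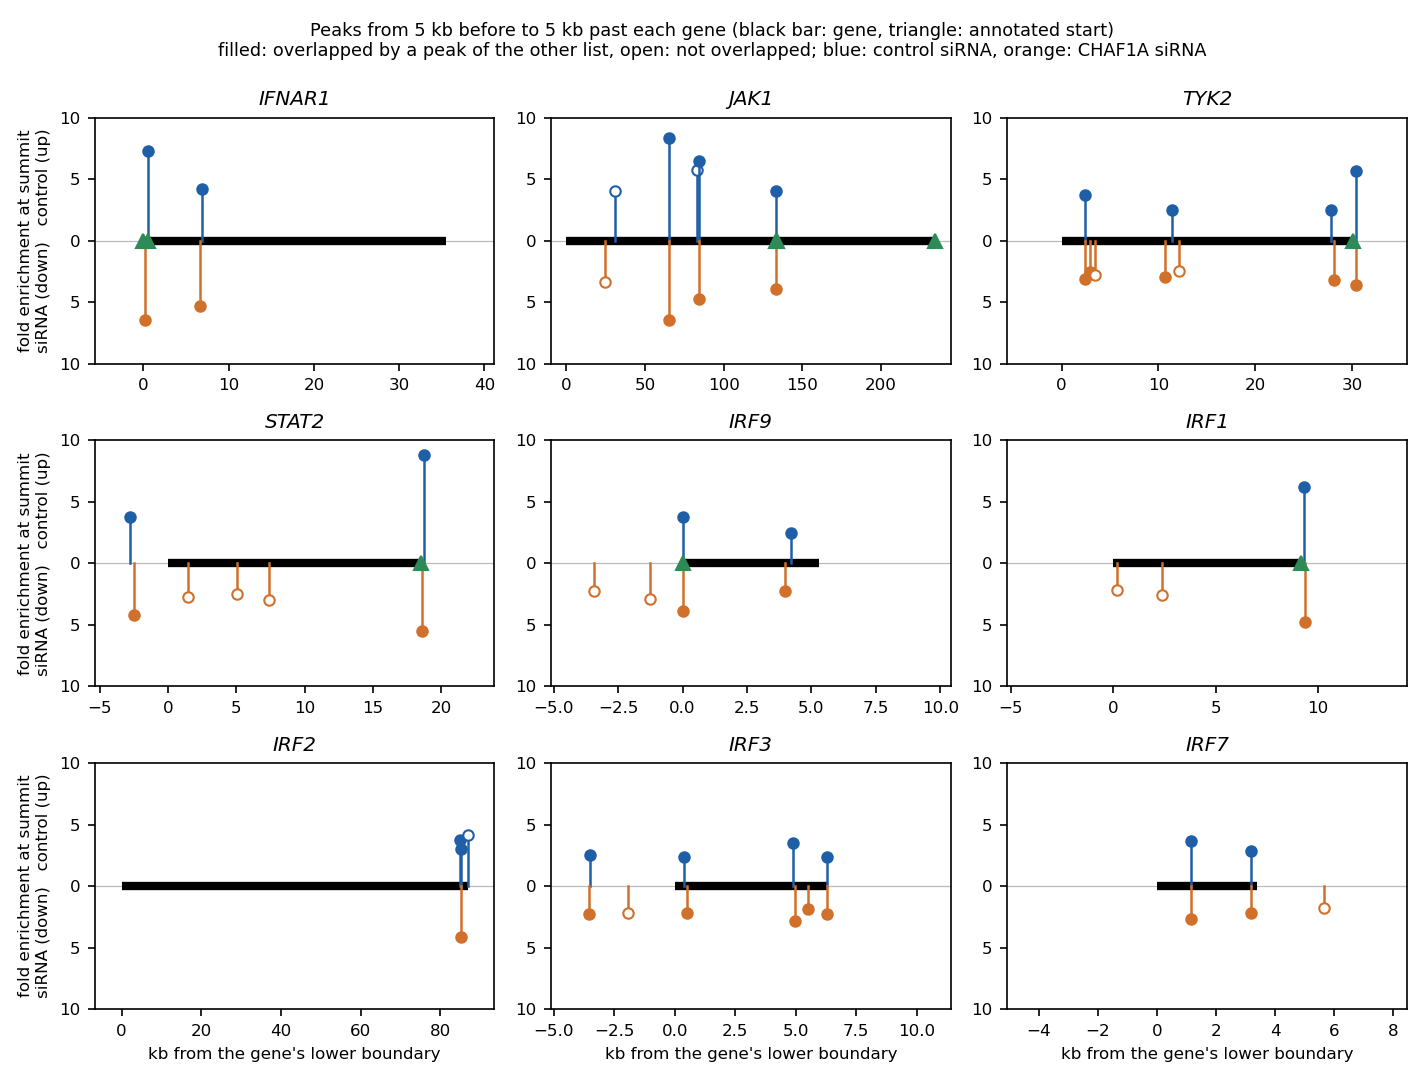
Each panel is 1 gene; the horizontal axis is the distance in kb from the gene's lower boundary and the vertical axis the fold enrichment at the summit, drawn upwards for the control list and downwards for the siRNA list. Filled points are peaks overlapped in the other list, open points are not, black bars are genes and triangles annotated starts (none was used for IRF2, IRF3 and IRF7). The tallest control peaks stand at STAT2 (8.82) and within JAK1 (8.35).

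The receptor chain gene IFNAR1 (chromosome 21, 33324395 to 33359864) carried 2 peaks in each list, all within the gene or over its start. The peak at the start spanned 33324351 to 33325451 in the control list, with 96 reads at the summit and 7.33-fold enrichment. After CHAF1A siRNA it spanned 33324385 to 33325533, with 95 reads and 6.45-fold enrichment. RefSeq places 2 starts under this peak. The control summit lay 77 bp before the inner start and the siRNA summit 246 bp past the outer one, a distance of 252 bp. The other peak lay in the gene, 6.35 kb past the inner start in the control list (fold enrichment 4.22) and 6.06 kb past it in the siRNA list (fold enrichment 5.26).

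JAK1 (chromosome 1, 64833229 to 65067746), a kinase shared by many cytokine receptors, is the longest of the 9 genes. It held 5 control and 4 siRNA peaks, and its density of 0.204 control peaks per 10 kb was below the 0.380 of all genes. No peak lay within 1 kb of the outer start at 65067746. RefSeq gives 2 inner starts, 64966549 and 64966936, and the only peak at a start lay beside them, from 64966183 to 64966578 in the control list (29 reads, fold enrichment 4.09) and from 64966183 to 64966544 in the siRNA list (36 reads, fold enrichment 3.90). The summits lay 167 and 102 bp past the start at 64966549, so only 29 of the 250 bases shown above were under the control peak and 0 under the siRNA peak. The promoter of that start has 43 CpG in its 300 bases, that of 64966936 has 9 and the outer one has 15. Across all 35116 RefSeq promoters, 66.6% of those with 20 CpG or more had a control peak on them, against 42.5% of those with 10 to 19.

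The strongest JAK1 peaks lay far inside the gene. The control peak at 64898224 to 64898780, 68.1 kb past the inner start, had 104 reads and a fold enrichment of 8.35. Its siRNA counterpart had 60 reads and 6.43, with the summit moved by 3 bp. A second one at 64917455 to 64917868 had 80 control reads and 47 siRNA reads, with fold enrichments of 6.45 and 4.72. Beside it, a control peak of 201 bp (64915942 to 64916142, 71 reads, fold enrichment 5.72, −log10 q 29.0) had no overlapping siRNA peak. It was the strongest of the 3 control peaks without a counterpart, and a weaker one (64864159 to 64864410, fold enrichment 4.09) also lay in JAK1. A siRNA peak without a control counterpart stood at 64858009 to 64858212 (fold enrichment 3.37).

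TYK2 (chromosome 19, 10350533 to 10380572), the kinase bound to IFNAR1, held 4 control and 7 siRNA peaks. The peak at its start spanned 10380394 to 10380994 in the control list, with 91 reads and 5.69-fold enrichment. After CHAF1A siRNA it spanned 10380402 to 10381053, with 74 reads and 3.58-fold enrichment. The summits stood 299 and 339 bp before the start. A broad control peak of 1341 bp near the other end of the gene (10352374 to 10353714) was met by 2 siRNA peaks, and another siRNA peak, without a control counterpart, lay just past it at 10353811 to 10354130. The same held for a siRNA peak at 10362456 to 10362642. The control peaks at 10361598 and 10378303 were weak, with −log10 q of 4.64 and 4.95, against 12.1 and 12.5 for the siRNA peaks that overlapped them.

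STAT2 (chromosome 12, 56341597 to 56360107), the STAT that carries IRF9 to DNA, had the strongest control peak of the set. It spanned 56359887 to 56360618 at the start, with 274 reads, a −log10 q of 155 and 8.82-fold enrichment. The siRNA peak at 56359874 to 56360562 had 169 reads, a −log10 q of 65.3 and 5.50-fold enrichment. The summits stood 209 and 73 bp before the start, as the capitals above show. The control peak also reached into the neighbouring gene APOF. The other control peak of the window overlapped IL23A, a cytokine gene next to STAT2, and its summit was within 1 kb of that gene's start. The siRNA list had 3 further peaks inside STAT2, at 56343008, 56346519 and 56348888, with fold enrichments of 2.72, 2.50 and 3.00 and no control counterpart.

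IRF9 (chromosome 14, 24161265 to 24166565), the DNA-binding subunit of ISGF3, had its main peak over the start. It spanned 24160957 to 24161646 in the control list (77 reads, fold enrichment 3.77) and 24160837 to 24161675 in the siRNA list (114 reads, fold enrichment 3.83). The summits were 25 and 24 bp past the start, the closest of any member. This promoter has 7 CpG in its 300 bases, and of all promoters with fewer than 10, 8.77% had a control peak on them. Both lists had a weaker peak inside the gene. The siRNA list had 2 more, at 24157812 and 24159910, both on the neighbouring gene RNF31, which encodes a ubiquitin ligase subunit.

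IRF1 (chromosome 5, 132481609 to 132490773), an activator that interferon gamma induces, had 1 control peak. It spanned 132490705 to 132491390 over the start, with 204 reads, a −log10 q of 88.4 and 6.24-fold enrichment. The siRNA peak had the same first base and ran to 132491775, with 193 reads, a −log10 q of 64.0 and 4.73-fold enrichment. The summits lay 162 and 179 bp before the start. The siRNA list alone had peaks with summits inside the gene, beginning at 132481327 and 132483948, with fold enrichments of 2.15 and 2.55.

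IRF2 (chromosome 4, 184387729 to 184474550), a relative of IRF1 that can repress the same targets, had the lowest top −log10 q of the 9 genes in both lists, 9.61 in the control list. All its peaks lay within 2.03 kb of its upper boundary. In the control list there were 3, with 28, 22 and 32 reads at the summit and fold enrichments of 3.78, 3.02 and 4.19. The siRNA list had 1 peak, at 184472363 to 184473164 (38 reads, fold enrichment 4.11), which joined the first 2. The last control peak, at 184474497 to 184474738, had its summit 176 bp past the boundary, between IRF2 and the divergent lncRNA IRF2-DT, and had no siRNA counterpart. IRF2 was the only member without a siRNA peak within 1 kb of a gene end where the control list had one. The share of all genes with such a control-only end peak is not given here, and the IRF2 peak was weak.

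IRF3 and IRF7, the factors that switch on interferon genes, are short genes packed against neighbours. IRF3 (chromosome 19, 49659572 to 49665857) held 4 control and 6 siRNA peaks. Its strongest spanned 49664136 to 49665391 in the control list (121 reads, fold enrichment 3.47) and 49664144 to 49664847 in the siRNA list (158 reads, fold enrichment 2.82). The control peak also overlapped BCL2L12, whose annotated start lies within 1 kb of both summits, so the signal cannot be assigned to either gene. A peak at the upper boundary of IRF3, with its summit at 49665884 in both lists, overlapped BCL2L12 as well (78 and 116 reads). The first peak of the window, at 49655991, lay on the neighbour SCAF1.

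IRF7 (chromosome 11, 612555 to 615950) had 2 peaks that were in both lists at the same summits. At 613702, inside the gene, the summit had 129 control and 161 siRNA reads, with fold enrichments of 3.66 and 2.68. At 615736, 214 bp inside the upper boundary, it had 102 and 135 reads, with fold enrichments of 2.84 and 2.21. Fold enrichment was thus lower in the siRNA list at both summits, and the reads were higher only as raw counts. Divided by the genome background of each list, a scale described further on, they gave siRNA to control ratios of 0.933 and 0.989. A further siRNA peak at 617885 to 618222 (fold enrichment 1.75) lay on the neighbour CDHR5.

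Peaks at annotated starts were found in both lists at every member whose start was known. RefSeq promoters were matched for 6 of the 9 genes, and all 6 had a peak within 1 kb of a start in each list. Over protein-coding genes with such an entry, 62.0% had a control and 64.9% a siRNA peak there. For IRF2, IRF3 and IRF7 either gene end was used, and all 3 had a control peak within 1 kb of an end, IRF3 and IRF7 also a siRNA peak. Over all protein-coding genes, the share with a peak within 1 kb of either end was 61.1% in the control list and 64.3% in the siRNA list. The outer JAK1 start was outside this pattern, as described.

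At IRF1 and IRF9 the sequence under the start peak held a gamma-activated site, an element found at genes that interferon gamma induces. The search used TTCNNNGAA, which reads the same on both strands, and found it in 7.66% of all promoters of 300 bases. In IRF1 the match TTCCCCGAA began 124 bases before the start, and the summits of the control and siRNA peaks were 42 and 59 bp from its centre. In IRF9 the match TTCTGGGAA began 63 bases before the start, 84 and 83 bp from the summits. None of the 9 promoters searched held the core of the ISRE, GAAANNGAAA on either strand. As 3.57% of all promoters held it, 9 promoters are too few to show a lack. IRF2, IRF3 and IRF7 had no promoter entry and were not searched. Matches are descriptions of letters, and binding of STAT or IRF proteins was not measured.

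Most member peaks were in both lists. Of the 25 control peaks, 22 (88.0%, exact Clopper-Pearson 95% interval 68.8 to 97.5) shared 1 bp or more with a siRNA peak, against 64.0% in all gene windows. In the other direction 23 of 35 siRNA peaks did so (65.7%, 47.8 to 80.9), against 49.4%. The intervals cover counting error only and treat peaks as independent, although several lie in the same gene, so they are no test against these shares. With 50% reciprocal overlap, 14 control and 14 siRNA peaks remained matched. As in gene windows in general, the shared peaks were the stronger ones by −log10 q, with medians of 15.7 (control) and 13.9 (siRNA) against 9.61 and 8.09 for peaks without a counterpart. Over all gene windows these medians were 14.5 and 14.1 against 6.69 and 6.66. By fold enrichment this held in the siRNA list only, with medians of 3.18 against 2.52, since the 3 unshared control peaks had a median of 4.19 against 3.73. Over all gene windows the shared control peaks had the higher median fold, 4.09 against 3.28.

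At the 6 genes with known starts, the peaks found in 1 list only lay more than 1 kb from those starts. Peaks without a counterpart were also more frequent there at genes in general. The control-only peak of IRF2, which has no start entry, is outside these counts. Its summit lay 176 bp past the upper boundary of the gene, so it may lie at a start. Among the 6 genes with a start entry, 2 of 10 control peaks and 10 of 19 siRNA peaks more than 1 kb from a start had no counterpart, and 0 of 6 within 1 kb in either list. Counted in the same way over all protein-coding genes with a start entry, 40.8% of control and 56.3% of siRNA peaks farther than 1 kb had no counterpart, and 11.8% and 17.4% of those within 1 kb. The 12 siRNA-only peaks were spread over 7 genes, 8 with the summit inside the gene and 4 on the neighbours RNF31, SCAF1 and CDHR5. Only 4 of them reached a −log10 q of 10: 2 of the 3 in STAT2 (11.2 and 12.3), 1 near IRF9 (14.1) and 1 near IRF3 (13.5). Of the 3 control-only peaks, the JAK1 peak of 71 reads was the only one to do so.

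To set the lists on a common scale, the reads at each summit were divided by the genome background of the list, which was 6.34 reads (control) and 8.49 reads (siRNA). Each control peak was then paired with the siRNA peak on it, which gave 21 pairs at the 9 genes. The median ratio of siRNA to control signal was 0.980 over these pairs and 0.877 over 28872 pairs in all gene windows, whose 10th and 90th percentiles were 0.596 and 1.19. At 3 of the 21 pairs the siRNA signal was lower by 2-fold or more, against 3.81% of all such pairs, and at 0 it was higher by as much, against 0.0277%. The 3 were the start of STAT2 and the 2 intragenic sites of JAK1.

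At STAT2 the signal went from 43.2 times background in the control list to 19.9 in the siRNA list, a ratio of 0.461 (95% counting interval 0.378 to 0.560). At JAK1 it went from 16.4 to 7.07 at the site of 104 reads, a ratio of 0.431 (0.308 to 0.598). At the second JAK1 site it went from 12.6 to 5.54, a ratio of 0.439 (0.300 to 0.637). Low ratios were more frequent among strong control peaks in general. Of the strongest 10% of shared peaks, those above 20.5 times background, 13.5% were lower by 2-fold or more, and of those between 10 and 20 times background 9.34% were. With the deposited fold enrichments, which use the local background, the 3 ratios were 0.624, 0.770 and 0.732, and no pair passed 2-fold.

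The starts of TYK2, IRF1 and IFNAR1 also had a lower siRNA signal, by less than 2-fold. Their ratios were 0.608 (0.441 to 0.835), 0.707 (0.578 to 0.865) and 0.740 (0.551 to 0.993). Strong shared peaks had low ratios in general. The median was 0.791 at a control signal of 10 to 20 times background, where TYK2 and IFNAR1 lay. It was 0.756 among the strongest 10%, where IRF1 lay. The intervals of IRF1 and IFNAR1 included these medians, and that of TYK2 did as well. IRF9 had a ratio of 1.11 at its start and JAK1 0.928 (0.553 to 1.57) at its inner start, and both intervals included 1. None of the 21 intervals lay wholly above 1, 15 included it and 6 lay below. Set against 0.869, the median of all shared peaks, 5 intervals lay below, 3 above and 13 included it. The 3 above were at TYK2 (10361598, ratio 1.37) and at IRF3 (49655991 and 49659910, ratios 1.22 and 1.23). The summits of the TYK2 pair stood 737 bp apart, each outside the other peak, so that ratio compares different places. Summits were within 50 bp of each other at 10 of the 21 pairs, against 50.7% of all pairs. All 4 pairs of IRF3 and both of IRF7 were between 0.933 and 1.23.

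**Figure D3:**
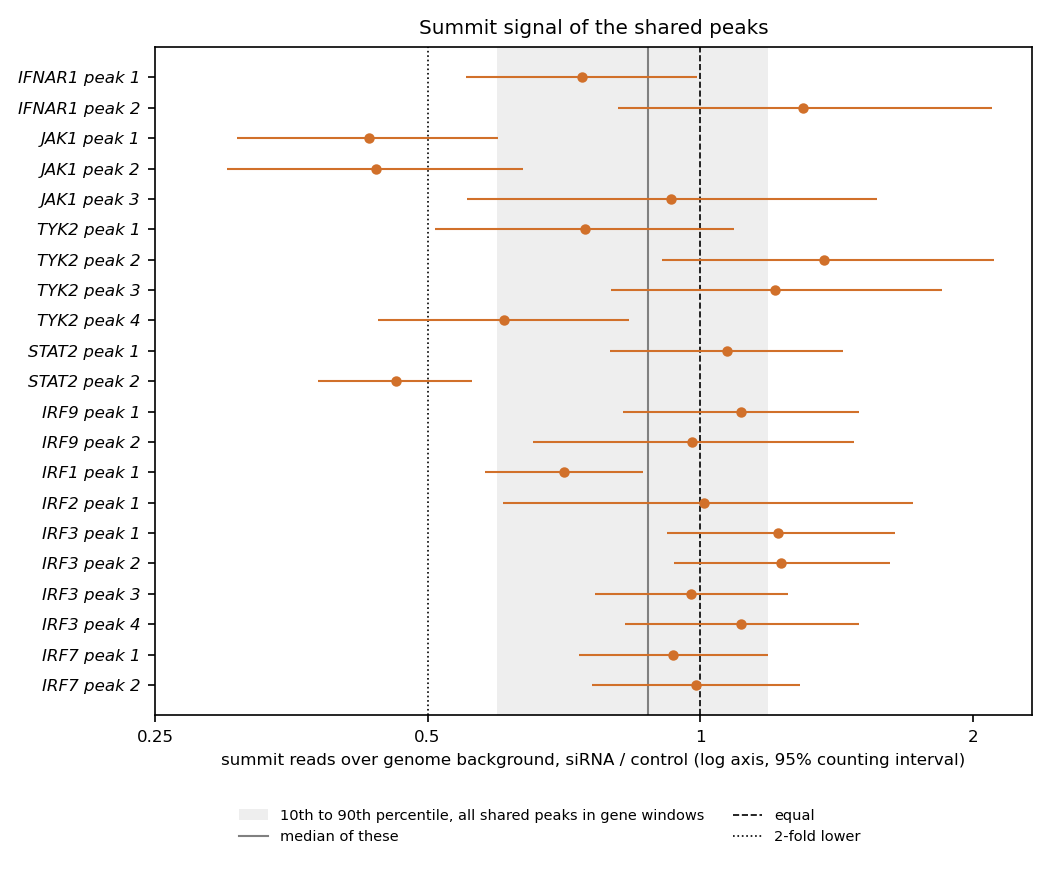
Ratio of siRNA to control summit signal (horizontal log axis, reads at the summit over the genome background of each list) for the 21 shared peaks, numbered by position within each gene (vertical axis); bars are 95% counting intervals and the band spans the 10th to 90th percentile of all gene windows. Peak 2 of STAT2 and peaks 1 and 2 of JAK1 lie left of the dotted line at 2-fold lower.

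The 2 scales differ because the local background, the reads expected around a peak by the caller, did not change alike at all genes. Over pairs in all gene windows its median ratio of siRNA to control was 1.34, equal to that of the genome backgrounds, with 10th and 90th percentiles of 1.12 and 1.59. At both IRF7 peaks it was 1.72, and at the IRF3 peaks it ran from 1.58 to 1.87. At the 2 strong JAK1 sites it was 0.733 and 0.793, and at the STAT2 start it was 0.991. IRF7 thus went from 34.5 to 59.3 reads of local background at its inner summit, while JAK1 went from 11.6 to 8.49. Whether copy number, mapping or chromatin state moved with these backgrounds was not tested.

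**Figure D4:**
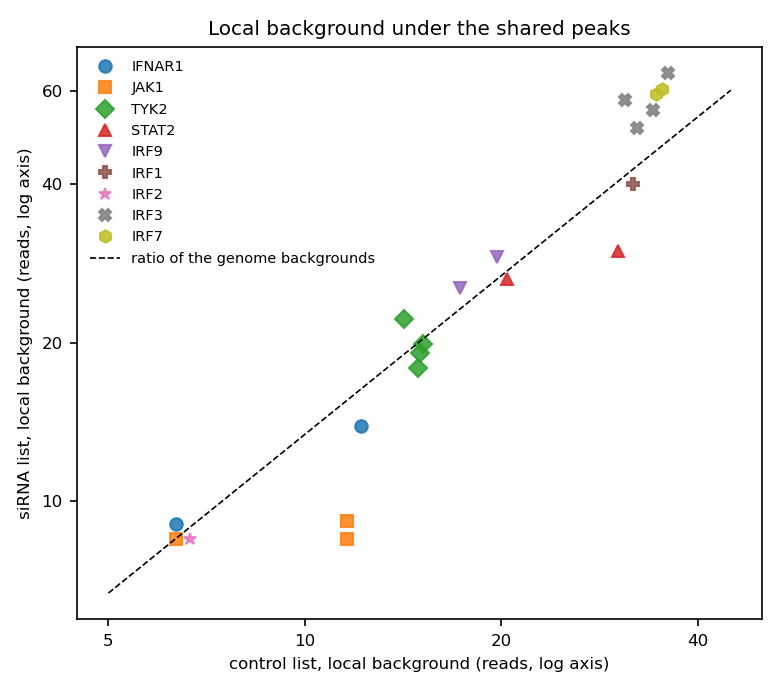
Local background in reads under each of the 21 shared peaks, in the control list (horizontal log axis) and the siRNA list (vertical log axis), 1 symbol per gene; the dashed line is the ratio of the genome backgrounds, 1.34. The peaks of IRF3 and IRF7 lie above the line, and 2 peaks of JAK1 and the start of STAT2 lie farthest below it.

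Around these members, 48 further genes of the pathway were listed, of which 40 had a RefSeq start. Of these, 22 had a peak within 1 kb of a start in each list, 1 had only a control peak, 3 only a siRNA peak and 14 none. That makes 23 of 40 with a control and 25 of 40 with a siRNA peak, beside the 62.0% and 64.9% given above. Shares over all genes are not given here for starts with peaks in both lists or in 1 list only. The counts of such starts are therefore not read as a trait of the pathway. By role, regulators that dampen the pathway had a peak in both lists at 7 of 8 starts. The other roles had them at 4 of 6 (IRFs and IRF2 partners), 4 of 6 (sensor adaptors and kinases) and 3 of 5 (kinases and STATs). Coactivators had them at 1 of 2, receptors at 1 of 4 and ligands at 2 of 9. With so few genes per role, these counts do not set a role apart. PTPN1, a phosphatase that acts on JAK2 and TYK2, was the strongest with a control −log10 q of 594 and fold enrichments of 16.5 and 14.9. STAT3, a STAT of the interleukin-6 pathway, IFNGR1, a chain of the interferon gamma receptor, and EP300, a histone acetyltransferase, followed with control fold enrichments of 7.97, 9.92 and 10.2.

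The interferon genes themselves had few peaks. Of 9 ligand genes with a start, 7 had none in either list, among them IFNB1, IFNG and IFNA1. IFNL2 and IFNL3 had a peak in both, but they are close copies, so reads between them may not be separable. Within 1 kb of a start, the receptor gene IL10RB had only a control peak (fold enrichment 3.01). There, IFNGR2, a receptor gene on the same chromosome, 21, had only a siRNA peak (2.88). The siRNA-only peak of the adaptor gene TRAF3 (3.00) overlapped a control peak that lay farther from the start, and that of the acetyltransferase gene CREBBP (5.41) did not. In windows of 5 kb around all 48 genes, 39 had peaks of each list, 0 only of the control, 1 (IFNL1) only of the siRNA list, and 8 had none. IL10RB, IFNGR2, TRAF3 and CREBBP were among the 39. Over all protein-coding genes, 82.3% had a control peak in such a window, 85.0% a siRNA peak and 5.50% only a siRNA peak.

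The window of 5 kb leaves some strong signal just outside. A peak that began at 132495775 in both lists, 5002 bp before the start of IRF1, had −log10 q values of 89.6 (control) and 89.4 (siRNA), above those of the IRF1 start. Between 5 and 10 kb from the 9 genes lay 11 control and 13 siRNA peaks in all. Cell type markers were read within 1 kb of either gene end. In the control list, 4 of 4 cholangiocyte markers (KRT7, KRT19, SOX9 and EPCAM) had a peak there. In the siRNA list 3 did, KRT7 being without one. None of 3 hepatocyte markers had a peak there in either list. Over all protein-coding genes, the share was 61.1% in the control list and 64.3% in the siRNA list. With shares this high and so few markers, the counts cannot check the labelled cell type. Peaks do not measure expression, and RNA of the 9 genes was not analysed here.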

How the data were processed

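CUT&Tag of CHAF1A was read from 2 peak lists, assigned to the control and siRNA groups by their names (NC and si); the lists do not keep samples apart. MACS2 2.1.2, Bowtie2 2.2.5, fastp 0.20.1, deepTools 3.4.3 and build hg38 are named per the submitters' processing notes. Not given in the sources used here are caller settings, pooling and any control library. The deposited fold enrichment is a linear ratio and p and q are deposited as −log10 values, with a lowest −log10 p of 5.00. The deposited score follows −log10 p and was not used. Read totals are not given, so depth is known only through the background below.

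Only chromosomes 1 to 22 plus X and Y entered (868 control and 886 siRNA peaks left out), positions counting from 1. Reads at each summit were solved from fold = (reads + 1)/(background + 1) and the Poisson tail, for −log10 p under 290; 99.1% of control and 99.2% of siRNA peaks could be solved, 99.99% of them to a whole number within 0.02 reads. Solver and overlap search were tested on simulated data. The genome background is the most frequent one. Counting intervals are exact binomial on the 2 summit counts; sequenced reads are not independent molecules, so they cover counting error only. Of control peaks on 1 siRNA peak the strongest was paired. No test between conditions was made.

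Gene positions and promoters (250 bases before to 50 from each start) are RefSeq GRCh38.p14; IRF2, IRF3 and IRF7 had no promoter entry. The 9 genes, the pathway and marker lists were chosen with earlier results of these data known. Named were all 9 genes, pathway genes with a start peak in 1 list only, and the 4 with the highest control −log10 q; other pathway genes and the peak just outside the IRF1 window were named after their values were seen. Cell type markers, planned at starts, were read at either gene end, since none of the cholangiocyte markers had a promoter entry; immune markers are not reported here. Alternatives varied window, −log10 q, overlap, number of peaks, scaling and motif mismatches. Software was Python 3.11.15 with scipy 1.17.1, pandas 2.3.3, numpy 2.4.6 and, for plots, matplotlib 3.10.9.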

Additional observations from a re-analysis of the deposited data

How the results depend on the processing

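No paired analysis was possible because each group has 1 list that does not keep its samples apart; for the same reason no sample could be left out. With −log10 q of at least 10, the 9 genes kept 15 control and 23 siRNA peaks, of which 14 and 14 were shared. With 50% reciprocal overlap 14 control and 14 siRNA peaks were shared. With deposited fold enrichments 0 pairs were lower by 2-fold or more, and with signals centred on the median of all shared peaks 1 was, in JAK1, and the median ratio moved to 1.13. In 5 kb windows, 39 pathway genes had peaks of each list, 0 only of the control, 1 only of the siRNA list, and 8 none, beside the shares over all genes given above. With 1 mismatch allowed, 1 member gene had an ISRE core and 4 a gamma-activated site, of the 6 genes with a promoter entry. Of all promoters, 33.0% and 66.1% then did. The cause of these shifts was not tested, except that stricter settings keep fewer peaks and looser ones match more. Of the values that answer a comparison, 49 under other settings stayed close to the one reported (counts within 1.5 times) and 15 did not. With siRNA reads scaled to the control background, all 35 siRNA peaks still passed p of 1e-05.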
